A study of Mus musculus with 8 samples.

Results

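The antiviral effector genes of the type I interferon response followed here in mouse liver were Ifit1, Ifit2, Ifit3, Rsad2, Isg15, Oasl2, Usp18, Ifi44, Bst2 and Xaf1. They were chosen by name as interferon-induced genes outside the GTPase families, with earlier results of these data known. All 10 of the 10 were among the 13696 gene symbols of the deposited expression table. The libraries came from mice whose Bicd2 gene, which encodes an adaptor between dynein and its cargo, was flanked by loxP sites on both alleles (Bicd2fl/fl). In 4 libraries the mice also carried albumin-driven Cre recombinase (Alb-Cre), which is used to target hepatocytes. Which other liver cells keep the gene was not measured here. The other 4 libraries were Cre-negative (Alb-WT). Every mouse, controls included, had been immunised with 2.5 mg of S-100, a soluble liver extract, in complete Freund's adjuvant weekly for 3 weeks to induce autoimmune hepatitis (AIH), with livers collected 2 weeks past the final injection. No unimmunised liver was analysed here, the labels give no age, sex or strain, and they do not say whether each library is a different animal. The p-values therefore measure only sample-to-sample spread, possibly of technical origin.

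Type I interferons are cytokines of antiviral defence that bind a receptor of the Ifnar1 and Ifnar2 chains. The receptor's kinases Jak1 and Tyk2 activate a transcription factor complex that includes Stat2 and Irf9 and binds the interferon-stimulated response element in promoters of their target genes. Several targets also respond to interferon gamma or directly to interferon regulatory factors. In liver both hepatocytes and immune cells can respond, and in bulk tissue fewer cells of a type and less RNA per cell cannot be told apart.

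The promoter sequences of the members were searched for the core letters of the response element. RefSeq promoter windows (GRCm38.p6) were found by symbol for 9 of the 10 genes. The core of the response element, GAAA followed by any 2 bases and a second GAAA, was searched on both strands in the 250 bases before the gene start, overlapping matches included. It occurred in 5 of these 9 genes and in 3.46% of the 27025 genes with a window (2.98% of 32851 windows). The 5 stretches are shown on the gene's own strand, 5′ to 3′, because they include genes that differed between the genotypes and genes that did not pass the test. Capitals mark these letters, which read as a pair of TTTC where they lie on the other strand.
Ifit1, chr19:34640770-34640828, plus strand: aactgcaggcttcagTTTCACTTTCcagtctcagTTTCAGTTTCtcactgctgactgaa
Ifit3, chr19:34583358-34583431, plus strand: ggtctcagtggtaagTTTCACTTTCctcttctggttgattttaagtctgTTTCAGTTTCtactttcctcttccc
Rsad2, chr12:26456548-26456587, minus strand: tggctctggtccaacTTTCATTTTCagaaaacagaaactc
Isg15, chr4:156200860-156200911, minus strand: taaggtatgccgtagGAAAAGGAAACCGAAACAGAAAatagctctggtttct
Bst2, chr8:71537572-71537617, minus strand: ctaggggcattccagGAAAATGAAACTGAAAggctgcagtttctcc
Isg15 held 3 overlapping matches starting 78 to 66 bases before the start, Bst2 2 overlapping ones, Ifit1 and Ifit3 2 separate ones and Rsad2 1. No match was found in these windows for Ifit2, Oasl2, Ifi44 and Xaf1, which says only that these letters are not there.

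Of the 10 genes, 6 fell in Alb-Cre livers, namely Ifit2, Ifit3, Rsad2, Oasl2, Usp18 and Ifi44 (limma on log2(FPKM + 1), Benjamini-Hochberg adjusted p under 0.05 over 11077 rows tested). FPKM is the number of fragments of a gene per length of the gene and depth of the library. Over all rows tested, 23.3% were called lower and 8.48% higher, 31.8% in either direction. In the same 6 genes every Alb-Cre value was below every Alb-WT value, as it was in 21.4% of all rows. Ifit1, Isg15, Bst2 and Xaf1 did not pass, and 0 of the 10 were called higher by limma, 0 at an unadjusted p under 0.05 and 0 by limma voom on fragment counts. The median difference of the 10 genes was -0.41 on the log2(FPKM + 1) scale, against -0.13 for all rows tested. That scale understates changes of low genes, and 7 of the 10 had mean levels under 6 FPKM in both groups.

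Some libraries and the scaling bear on these values. Alb-Cre replicate 4 stood apart from its group: its fragment counts deviated from those of the other Alb-Cre libraries by 357 to 385 times counting noise (mean squared deviate), against 9.72 to 20.9 among replicates 1 to 3 and 5.45 to 11.8 within Alb-WT. Without it 7 of the 10 genes were called lower, against 46.1% of all rows. Median-of-ratios scaling moved the median of all rows from -0.13 to 0.02 and quantile normalization to 0.02, and the share of lower among all calls from 73.3% to 44.7% and 49.3%. Of the 10 genes, 6 were still called lower with the first and 5 with the second, against 13.7% and 13.3% of all rows. Bicd2 itself was 0.509 to 0.732 FPKM in the Alb-Cre and 2.46 to 3.11 FPKM without Cre (log2 difference -1.24, SE 0.082, limma adjusted p = 7.25e-05). Recovered fragments for the 10 genes ranged from 139 for Ifit2 in Alb-Cre replicate 1 to 9515 for Bst2 in Alb-Cre replicate 4. Libraries held 32524927 to 38893858 fragments over the listed genes.

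**Figure D1:**
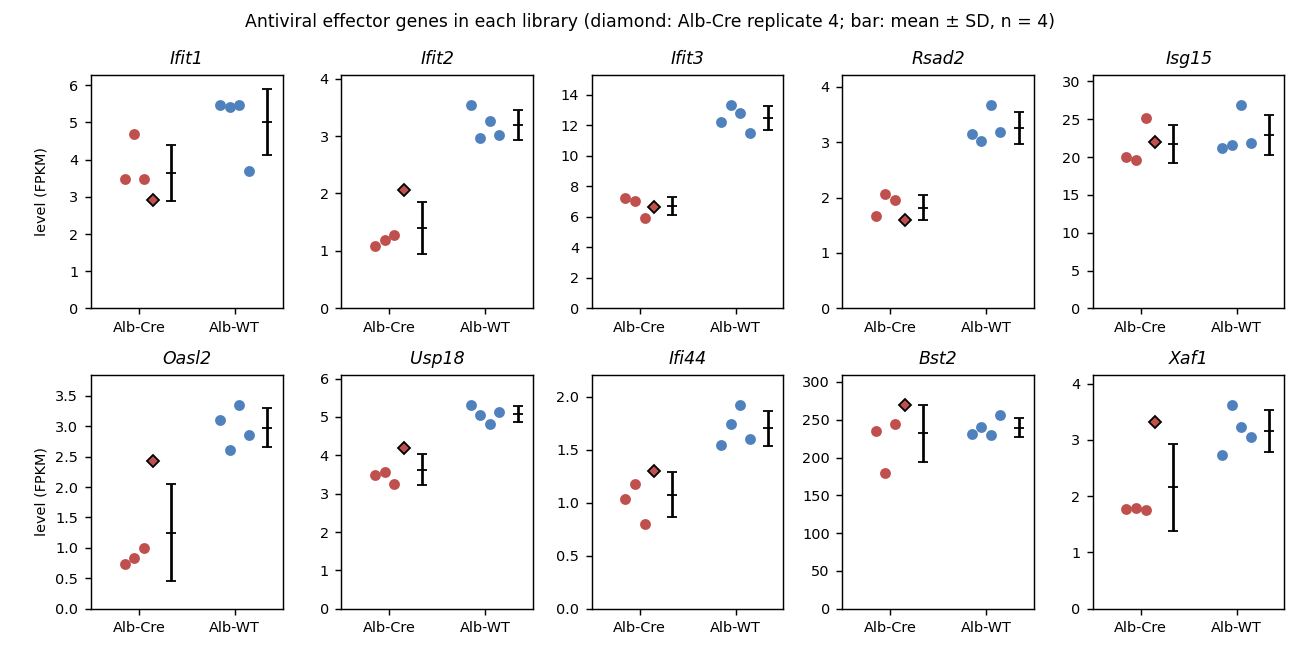
Level of each of the 10 genes in FPKM (vertical axes, each starting at 0) in the 4 Alb-Cre and 4 Alb-WT libraries; points are libraries, the diamond is Alb-Cre replicate 4, and bars are the mean ± SD (n = 4). Ifit2, Ifit3, Rsad2, Oasl2, Usp18 and Ifi44 do not overlap between groups, whereas Ifit1, Isg15, Bst2 and Xaf1 do.

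The Ifit genes encode tetratricopeptide-repeat proteins that bind viral RNA or translation factors, and they lie in a cluster on chromosome 19. Values are given in the order of replicates 1 to 4, with Cre (Alb-Cre) and without Cre (Alb-WT). Ifit3 was 7.25, 7.05, 5.95 and 6.64 FPKM with Cre and 12.2, 13.3, 12.8 and 11.5 FPKM without Cre. The highest Alb-Cre library lay well below the lowest Alb-WT library. The mean was 6.72 ± 0.577 FPKM with Cre against 12.5 ± 0.795 FPKM without Cre (SD, n = 4), a level 1.86 times higher in Alb-WT, and the log2 difference of -0.80 (SE 0.0767) exceeded the spread between replicates (limma adjusted p = 0.000337). Only 4.19% of all rows tested had a more negative difference. Alb-Cre replicate 4 lay within the range of its group for this gene, and without it the difference was also -0.80.

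Ifit2 was 1.08, 1.19, 1.27 and 2.06 FPKM with Cre and 3.54, 2.97, 3.26 and 3.01 FPKM without Cre. Alb-Cre replicate 4 was the highest of its group and still below every Alb-WT library. The level was 2.28 times higher in Alb-WT (log2 difference -0.82, SE 0.123, limma adjusted p = 0.00281), and without Alb-Cre replicate 4 the difference was -0.94 (SE 0.0716, adjusted p = 1.7e-06).

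Ifit1, whose product binds RNA caps that lack the methylation of host messages, was 3.48, 4.70, 3.49 and 2.90 FPKM with Cre and 5.47, 5.42, 5.46 and 3.70 FPKM without Cre. The groups overlapped, because Alb-WT replicate 4 lay below Alb-Cre replicate 2. The log2 difference of -0.37 (SE 0.143) did not pass the threshold (limma adjusted p = 0.0718). The gene was called without Alb-WT replicate 4 (-0.49, adjusted p = 0.0345) or without Alb-Cre replicate 2 (-0.48, adjusted p = 0.0429). In Alb-Cre replicate 4 Ifit1 was the lowest of all 8 libraries.

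Ifit3 has a near-identical neighbour, Ifit3b, and Ifit1 a close relative, Ifit1bl1, so fragments of shared sequence may have been divided between them and their separate levels are uncertain. Both relatives are named here for that reason. Ifit3b was 1.25 to 1.69 FPKM with Cre and 1.86 to 2.97 FPKM without Cre (log2 difference -0.42, SE 0.109, limma adjusted p = 0.0213). Ifit1bl1 was 0.0743 to 0.249 FPKM with Cre and 0.406 to 0.678 FPKM without Cre, under the mean of 0.5 FPKM required for testing.

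Rsad2 encodes viperin, an enzyme that makes a chain-terminating nucleotide from CTP. Its level was 1.66, 2.06, 1.95 and 1.59 FPKM with Cre and 3.14, 3.03, 3.67 and 3.18 FPKM without Cre. Every Alb-Cre value was below every Alb-WT value, and Alb-Cre replicate 4 was the lowest library of all. The mean was 1.82 ± 0.227 FPKM with Cre against 3.25 ± 0.283 FPKM without Cre (SD, n = 4; log2 difference -0.60, SE 0.0829, limma adjusted p = 0.00205). Cmpk2, the neighbouring gene of a nucleotide kinase that supplies viperin's substrate, was 1.52, 1.41, 1.65 and 1.60 FPKM with Cre and 3.36, 3.23, 2.63 and 2.77 FPKM without Cre. Cmpk2 fell by 0.65 on the log2 scale (SE 0.080, limma adjusted p = 0.00118), and its values in Alb-Cre replicate 4 and the other Alb-Cre libraries were alike.

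Oasl2 belongs to the oligoadenylate synthetase family, whose products sense double-stranded RNA. Its level was 0.737, 0.8294, 1.005 and 2.43 FPKM with Cre and 3.10, 2.61, 3.34 and 2.85 FPKM without Cre. Alb-Cre replicate 4 was far above the other Alb-Cre libraries and just below the lowest Alb-WT library. The level was 2.38 times higher in Alb-WT (log2 difference -0.88, SE 0.200, limma adjusted p = 0.0142), and the difference was -1.10 (SE 0.0827) without Alb-Cre replicate 4. With a pseudocount of 0.1 in place of 1 FPKM it was -1.34. Its relative Oasl1 went the other way, from 3.76 to 4.18 FPKM in Alb-WT to 5.44 to 6.46 FPKM in Alb-Cre (log2 difference 0.48, SE 0.071, limma adjusted p = 0.00262).

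Isg15 and Usp18 act on the same modification: Isg15 is a ubiquitin-like protein that is joined to other proteins, and Usp18 removes it and also restrains signalling at Ifnar2. Isg15 was 20.1, 19.6, 25.2 and 22.0 FPKM with Cre and 21.3, 21.6, 26.9 and 21.9 FPKM without Cre. The groups overlapped over most of their range. The log2 difference was -0.07 (SE 0.103, limma adjusted p = 0.592), and its sign turned with median-of-ratios scaling (0.11) and without Alb-WT replicate 3 (0.0014).

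Usp18 was 3.48, 3.57, 3.25 and 4.20 FPKM with Cre and 5.30, 5.06, 4.80 and 5.12 FPKM without Cre, with no overlap. The mean was 3.62 ± 0.408 FPKM with Cre against 5.07 ± 0.206 FPKM without Cre (SD, n = 4; log2 difference -0.40, SE 0.0769, limma adjusted p = 0.00795). The difference was -0.24 with median-of-ratios scaling and -0.23 with quantile normalization, still called with both. An annotated gene model on the opposite strand overlaps its exons, and the strand setting of the counting is not given in the sources used here. Of 4 listed ISG15 conjugation enzymes, 2 fell and 2 did not pass. The activating enzyme gene Uba7 had a log2 difference of -0.62 (limma adjusted p = 0.0255), a call that was lost on leaving out any of the 7 libraries other than Alb-Cre replicate 4 and with the replicate block (adjusted p up to 0.0716). The ligase gene Herc6 had -0.35 (adjusted p = 0.0107), a call lost with quantile normalization (adjusted p = 0.22).

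Ifi44, a cytoplasmic protein gene of little-known mechanism, was 1.03, 1.17, 0.803 and 1.30 FPKM with Cre and 1.55, 1.75, 1.92 and 1.60 FPKM without Cre. The groups did not overlap (log2 difference -0.38, SE 0.0911, limma adjusted p = 0.0163). The call was lost with quantile normalization (-0.17, adjusted p = 0.13), without Alb-WT replicate 3 (adjusted p = 0.0522) and with the replicate block (adjusted p = 0.0523).

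Xaf1, which encodes an antagonist of the apoptosis inhibitor XIAP, was 1.77, 1.78, 1.76 and 3.32 FPKM with Cre and 2.73, 3.61, 3.23 and 3.06 FPKM without Cre. Alb-Cre replicates 1 to 3 were nearly equal and below every Alb-WT library, whereas replicate 4 lay inside the Alb-WT range. The log2 difference of -0.42 (SE 0.152) was not called (limma adjusted p = 0.062). Without Alb-Cre replicate 4 it was -0.58 (SE 0.0775, adjusted p = 0.000106).

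Bst2, which encodes tetherin, a membrane protein that holds budding virus particles at the cell surface, was the most abundant of the 10 genes. Its level was 236, 179.7, 244 and 269 FPKM with Cre and 231, 241, 229 and 256 FPKM without Cre. The Alb-Cre libraries included both the lowest and the highest value. The log2 difference was -0.06 (SE 0.120, limma adjusted p = 0.725), and its sign turned with median-of-ratios scaling (0.14) and without Alb-Cre replicate 2 (0.06).

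**Figure D2:**
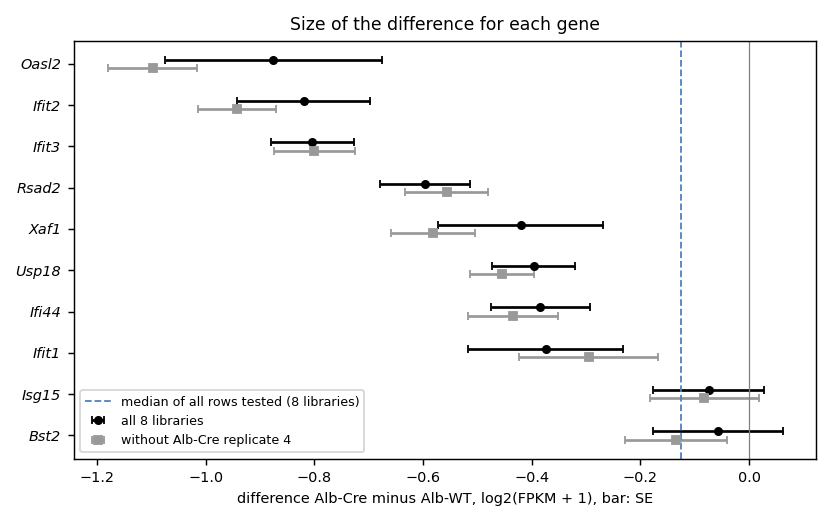
Difference between Alb-Cre and Alb-WT on the log2(FPKM + 1) scale (horizontal axis) for each of the 10 genes, with all 8 libraries (circles) and without Alb-Cre replicate 4 (squares); bars are the SE of the limma fit and the dashed line is the median of all rows tested (-0.13). The values run from -0.88 for Oasl2 to -0.06 for Bst2, and Ifit3 has the same value, -0.80, in both fits.

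The order of the differences was Oasl2 (-0.88), Ifit2 (-0.82), Ifit3 (-0.80), Rsad2 (-0.60), Xaf1 (-0.42), Usp18 (-0.40), Ifi44 (-0.38), Ifit1 (-0.37), Isg15 (-0.07) and Bst2 (-0.06, all log2). The first 3 differed by no more than the SE of Oasl2, and the 4 from Xaf1 to Ifit1 by no more than the smallest SE among them. An exact permutation test (two-sided) exchanging the genotypes of the FPKM values gave p = 0.0286 for each of the 6 genes without overlap, the smallest that 70 assignments allow. It gave 0.0571 for Ifit1, 0.114 for Xaf1, 0.543 for Isg15 and 0.8286 for Bst2. By level in Alb-WT, FPKM being a value per gene length, Bst2 (239) stood above Isg15 (22.9) and Ifit3 (12.5), followed by Usp18 (5.07) and Ifit1 (5.01), Rsad2 (3.25), Ifit2 (3.19), Xaf1 (3.16), Oasl2 (2.98) and Ifi44 (1.70). The 4 genes from Rsad2 to Oasl2 did not differ in level beyond their SD there, nor did Usp18 and Ifit1.

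The genes were also set against 2 that did not pass, as a ratio of FPKM values within each library, which does not depend on how a library is scaled. These ratios were chosen after the values were seen. The ratio of Ifit3 to Isg15 was 0.361, 0.36, 0.236 and 0.302 with Cre and 0.576, 0.618, 0.477 and 0.524 without Cre, with no overlap. Of the 9 other genes, 5 had ratios to Isg15 without overlap between groups, namely Ifit2, Ifit3, Rsad2, Oasl2 and Ifi44, and 9.27% of all rows did. Ratios to Bst2 did not overlap for 5 of the 9 other genes, with Usp18 in place of Ifi44, and for 15% of all rows. The 2 denominators were the most abundant members and had not passed the test, so nothing is read from these counts against all rows. The ratio of Bst2 to Isg15 itself was 9.18 to 12.2 with Cre and 8.53 to 11.7 without Cre. A ratio shows unequal change of the genes in it and not which of them changed.

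The members differed in how Alb-Cre replicate 4 lay relative to Alb-Cre replicates 1 to 3. On the log2(FPKM + 1) scale it was lower than their mean for Ifit1 (-0.31), Rsad2 (-0.16) and Ifit3 (-0.02), nearly the same for Isg15 (0.03), and higher for Ifi44 (0.20), Usp18 (0.23), Bst2 (0.30), Ifit2 (0.49), Xaf1 (0.64) and Oasl2 (0.89). The median over the 10 genes was 0.22, against 0.17 over all rows tested. For 21 interferon-inducible GTPase genes, a related group of interferon targets, the same median was 1.62, and for 16 interferon-gamma-associated genes it was 1.73. In Alb-Cre replicate 4, 7 of the 10 genes were below every Alb-WT library, as were 17 of the 21 GTPase genes, 5 of the 16 gamma-associated genes and 33.5% of all rows. With a single library these values have no replicate check and no test.

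**Figure D3:**
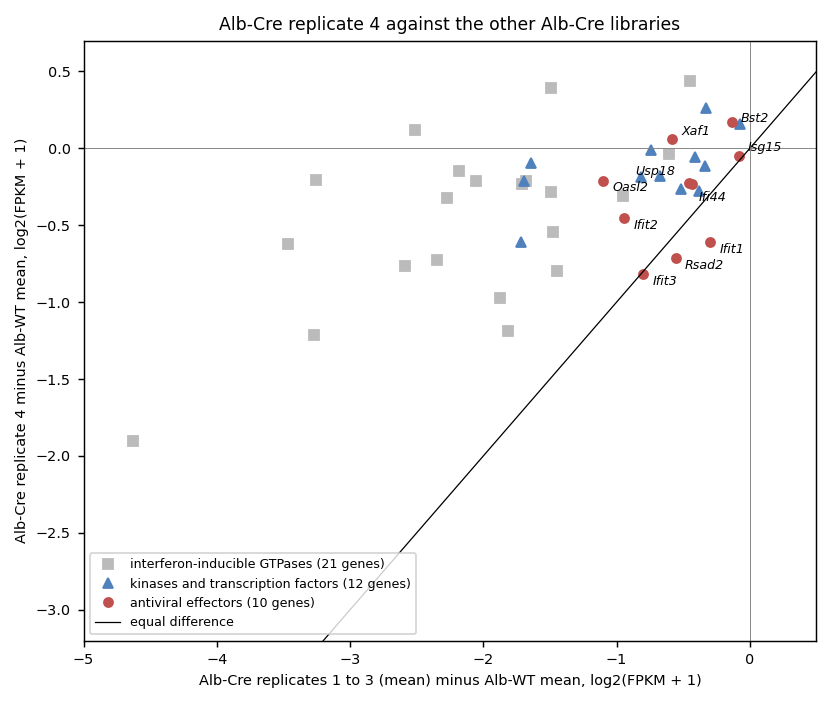
Difference of Alb-Cre replicate 4 from the Alb-WT mean (vertical axis) against that of the mean of Alb-Cre replicates 1 to 3 (horizontal axis), both on the log2(FPKM + 1) scale, for the 10 antiviral effectors (circles), 12 kinases and transcription factors (triangles) and 21 interferon-inducible GTPases (squares). On the line the differences are equal; Ifit3, Rsad2 and Ifit1 lie on or below it, whereas the medians of the GTPases are -1.88 for replicates 1 to 3 and -0.31 for replicate 4.

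The other parts of the pathway were described from lists of genes fixed by name, which were chosen with earlier results of these data known. None of the 21 listed interferon ligand genes was in the table, which holds no value of 0, so their levels were not analysed here. Of 4 receptor genes in the table, 1 fell and 3 did not pass. Ifngr1, a chain of the interferon-gamma receptor, was 5.68, 6.44, 7.04 and 12.0 FPKM with Cre and 14.4 to 16.0 FPKM without Cre (log2 difference -0.91, limma adjusted p = 0.00912). Of the type I receptor chains, Ifnar1 was 4.87 to 5.84 FPKM with Cre and 5.59 to 6.29 FPKM without Cre (-0.14, adjusted p = 0.143, and 0.03 with median-of-ratios scaling). Ifnar2 was 2.78 to 5.83 FPKM with Cre and 5.20 to 6.82 FPKM without Cre (-0.52, adjusted p = 0.0521). Ifngr2 had a difference of -0.32 (adjusted p = 0.0502). Without Alb-Cre replicate 4 all 4 were called lower, as were 46.1% of all rows.

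Kinases and transcription factors of interferon signalling fell in 10 of 12 tested cases, and 2 did not pass, with a median log2 difference of -0.50. Of the 10 calls, 5 held under all 18 alternatives, those of Jak2, Irf1, Irf5 and Irf7 among them. Irf7, which amplifies type I interferon production, was 12.0, 12.1, 14.1 and 15.3 FPKM with Cre and 18.3, 17.7, 18.8 and 19.5 FPKM without Cre (-0.45, adjusted p = 0.0073). Irf1 had a difference of -1.32, Irf5 of -0.66 and Jak2 of -0.55.

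The calls of the other 5 did not hold throughout. Stat2, a factor of the type I pathway, had a difference of -0.56 (limma adjusted p = 0.0303) and lost its call on leaving out any library but Alb-Cre replicate 4 (adjusted p up to 0.0834). The call of Irf9 (-0.32, adjusted p = 0.0339) was lost in 9 of the 18 alternatives, again those without any of these 7 libraries among them (adjusted p up to 0.113). Irf8 (-1.26, adjusted p = 0.0216) and Jak1 (-0.28, adjusted p = 0.0182) lost it in 6 each, and Irf2 (-0.35, adjusted p = 0.0048) with median-of-ratios scaling (adjusted p = 0.0636). Tyk2 (-0.18) and Irf3 (-0.02, its sign turning in 4 alternatives) did not pass, and Irf4 was below the level tested.

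Of 14 sensors and adaptors upstream of type I interferon 2 fell and 12 did not pass, a share under the 23.3% of all rows called lower, with a median log2 difference of -0.17. Tlr7, an endosomal sensor of single-stranded RNA, was 0.889, 0.966, 0.651 and 1.40 FPKM with Cre and 2.18, 2.79, 3.18 and 2.23 FPKM without Cre (-0.87, limma adjusted p = 0.00314). Unc93b1, which carries such sensors to the endosome, had a difference of -0.87 (adjusted p = 0.026), a call lost on leaving out any library but Alb-Cre replicate 4 (adjusted p up to 0.073). Of 7 negative regulators 2 fell, a share near that of all rows, namely Pias1 (-0.26, adjusted p = 0.0453) and the phosphatase gene Ptpn6 (-0.78, adjusted p = 0.0488), and both calls were lost in 10 of the 18 alternatives. Without Alb-Cre replicate 4, 10 sensors and adaptors were called lower and 2 higher, and all 7 negative regulators were called lower, in a fit that called 46.1% of all rows lower.

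Other interferon-stimulated genes outside the GTPase families fell in 30 of 46 cases, 1 rose and 15 did not pass (median -0.50). The ubiquitin ligase gene Dtx3l was 5.58, 6.16, 5.28 and 7.83 FPKM with Cre against 11.2, 11.8, 11.3 and 10.0 FPKM without Cre (log2 difference -0.75, limma adjusted p = 0.00251), and the nuclear body gene Sp100 had -0.66 (adjusted p = 0.00312). Lgals9, which encodes a galectin, rose from 167 to 178 FPKM in Alb-WT to 212 to 248 FPKM in Alb-Cre (0.45, adjusted p = 0.00337). Among close relatives of the members 4 of 11 fell, 2 rose and 5 did not pass (median -0.38). Besides Oasl1, the other that rose was Ifi27, a mitochondrial or nuclear membrane protein gene, at 137, 128, 121 and 127 FPKM with Cre against 89.9, 73.2, 88.0 and 86.8 FPKM without Cre (0.60, SE 0.081, adjusted p = 0.00185).

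GTPase genes and interferon-gamma-associated genes had more negative median differences than the members. The GTPases fell in 19 of 21 cases with a median log2 difference of -1.65, and the gamma-associated genes in 13 of 16 with a median of -1.56, against -0.41 for the 10 effectors. Iigp1, an immunity-related GTPase, was 55.7 to 88.5 FPKM with Cre and 191 to 209 FPKM without Cre (-1.66, limma adjusted p = 0.000227). Irgm1 (-1.29) and Gbp10 (-1.65) also fell, as did Serpina3f (-2.60), Tap1 (-1.36) and Ciita (-1.18, log2 differences). No test compared these lists with each other.

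**Figure D4:**
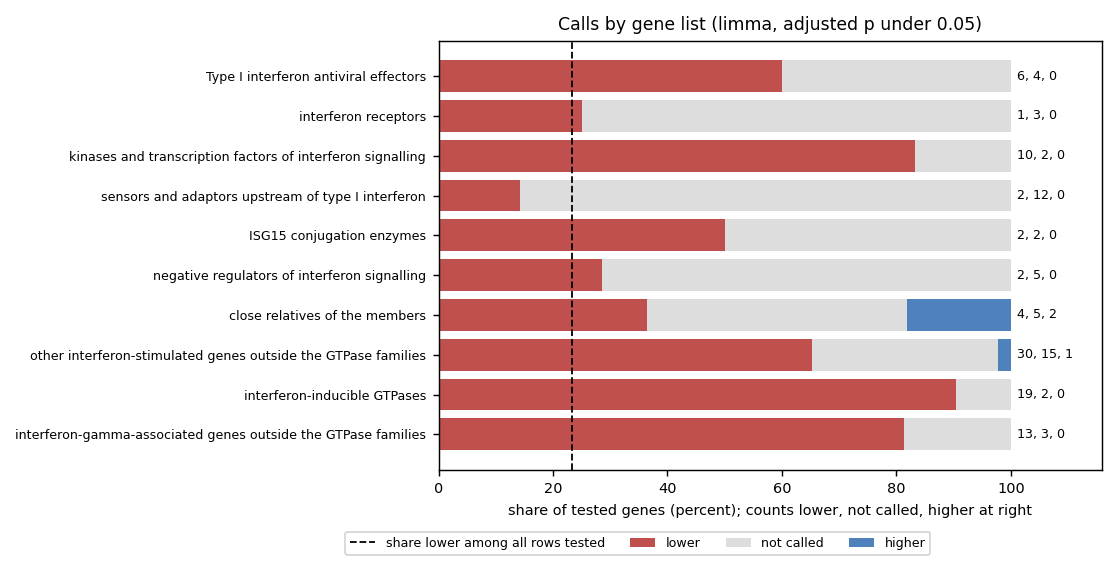
Share of tested genes (horizontal axis, percent) called lower, not called or called higher in Alb-Cre for each gene list, with the counts in that order at the right; the dashed line is the 23.3% of all rows tested that were called lower. The bar of the 10 antiviral effectors ends at 6 lower and 4 not called, between those of the sensors and adaptors (2 of 14 lower) and of the GTPases (19 of 21 lower).

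Markers of some cell types moved with the same contrast. Of 8 monocyte and macrophage genes 7 fell, and their summed level was 103 to 113 FPKM in Alb-Cre replicates 1 to 3, 468 FPKM in replicate 4 and 465 to 492 FPKM without Cre. Most of that sum was Lyz2 (388 FPKM in replicate 4, 368 to 396 FPKM without Cre), and 5 of the 8 genes in replicate 4 were below every Alb-WT library, among them Csf1r (24.7 FPKM against 34.8 to 36.1 FPKM). Of 8 Kupffer cell genes 7 fell, with sums of 235 to 249.6, 473 and 555 to 588 FPKM in the same order, and 7 of the 8 in replicate 4 were below every Alb-WT library. The other was Marco, at 125 FPKM in replicate 4 against 83.1 to 90.4 FPKM in Alb-WT. All 5 tested neutrophil genes fell, as did 4 of 4 cholangiocyte, 3 of 6 stellate cell and 3 of 6 sinusoidal endothelial genes, against 23.3% of all rows. Some of these calls did not hold throughout. Marco and the stellate gene Col1a1 lost theirs in 11 of 18 alternatives each, and the macrophage gene Cd68 in 8. Lyz2, Col3a1 (stellate) and Sox9 (cholangiocyte) lost theirs in 7 each, and Stab1 (endothelial) in 5. Cx3cr1 (macrophage) lost it in 3 of 17 and Krt19 (cholangiocyte) in 2. The other calls of these lists held. Of the lymphoid and dendritic cell markers, 1 of 2 NK cell genes fell (Gzma, its call lost in 10 of 18 alternatives). With all 8 libraries limma called 0 of 4 T cell, 0 of 3 B and plasma cell, 0 of 2 conventional dendritic cell and 0 of 2 plasmacytoid dendritic cell genes lower. Summed T cell markers were 1.13 to 1.49 FPKM in Alb-Cre replicates 1 to 3, 7.08 FPKM in replicate 4 and 4.42 to 5.27 FPKM without Cre. In the same order, conventional dendritic cell sums were 1.19 to 1.38, 5.92 and 4.26 to 4.90 FPKM. B and plasma cell sums were 2.95 to 3.70, 15.3 and 5.88 to 7.10 FPKM. Plasmacytoid dendritic cells, known for large interferon output, were represented by 3 of 6 markers in the table. Their defining gene Siglech was 0.0413 to 0.317 FPKM with Cre and 0.12 to 0.205 FPKM without Cre, and Ly6d was 0.526 to 2.06 FPKM in 7 libraries but 32.7 FPKM in Alb-Cre replicate 4. Of 6 hepatocyte genes none was called by limma, with summed levels of 40598 to 42003 FPKM in Alb-Cre replicates 1 to 3, 29826 FPKM in replicate 4 and 38003 to 38926 FPKM in Alb-WT. Apoa1 (5558 to 6961 FPKM with Cre, 7389 to 7948 FPKM without) and Hnf4a (110 to 118 and 121 to 130 FPKM) did not overlap, as 21.4% of all rows were lower without overlap. Without Alb-Cre replicate 4 both were called lower, and Alb, Ttr and Serpina1a higher. That fit called 5112 of 11077 rows lower and 1679 higher. The part of cell numbers in the differences of the 10 genes was not tested.

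The genes whose profile over the 8 libraries was most like the mean profile of the 10 members were Mef2a, Cep350, Zzz3, Nlrp6 and Arrb1. Likeness was the root mean square difference of log2(FPKM + 1) values, each less its 8-library mean, and it was 0.0288 for Mef2a and 0.0388 for Arrb1. Among the members it was 0.0782 for Usp18 and 0.0909 for Ifi44 but 0.292 for Oasl2. The 5 genes were picked for the smallest difference, so their lying closer than the members is not a result. Mef2a was 1.63, 1.78, 1.79 and 2.33 FPKM with Cre and 2.90, 3.09, 3.32 and 2.88 FPKM without Cre.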

How the data were processed

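The 8 liver RNA libraries, 4 Alb-Cre and 4 Alb-WT, were grouped by sample title, and table columns were matched by library name. The deposited values are FPKM, as computed by the authors. The submitters' processing notes list HISAT2 2.0.5 and, with no role, the builds mm39 and hg38. Counter, annotation and strand setting: not given in the sources used here. The sample descriptions also name 10x Genomics, while the labels' protocols describe bulk Illumina libraries.

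FPKM times a length was a whole multiple of 1 step per library for 13703 of 13703 rows (tolerance 0.001 fragments), which gave the fragments. For 12706 rows the length was the merged exon length of GENCODE M21. For the other 997, Isg15 among them, it was the shortest length that made all 8 values whole. Wholeness was required there and is not a finding, and those fragments are less certain. The test, by limma 3.58.1 (R 4.3.3; genotype only), took log2 of FPKM plus 1 for the 11077 rows whose mean reached 0.5 FPKM, and genes were called at an adjusted p under 0.05. The test was checked on data simulated from the Alb-WT means and spread, with no outlying library. That check therefore does not cover a group that holds a library like Alb-Cre replicate 4. Averaged over rows, every pair of replicates differed by more than counting noise. The members and lists were chosen with earlier results of these data known. Named were the 10 members, Bicd2, every receptor, kinase and factor in the table (1 of them is counted but its values are not reported here), the 3 called genes of smallest p in each other list and the 5 nearest profiles. Alternatives changed the pseudocount (0.1, 0.5), filter (none, 2 FPKM), scaling, weights, model or libraries. A protein comparison was not made. Python 3.11.15 did the rest.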

Additional observations from a re-analysis of the deposited data

Results flagged for a closer look

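In 4 of 20 groups of 4 libraries (10 genes in 2 groups), the highest or lowest library lay apart from the others by more than Dixon's critical value for the gap over the range, which chance alone exceeds in about 1 in 20 groups. Alb-Cre replicate 4 was the high library for Oasl2 (2.43 FPKM, gap over range 0.842) and Xaf1 (3.32 FPKM, 0.985). Alb-WT replicate 4 was the low library for Ifit1 (3.70 FPKM, 0.974), and Alb-WT replicate 3 the high library for Isg15 (26.9 FPKM, 0.881).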

How the results depend on the processing

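Under 18 alternatives, 8 of which left out 1 library each, 5 to 8 of the 10 genes were called lower, against 6, and 0 were called higher. The number of all rows called lower moved too. Of 11077 rows, it was 1205 without Alb-WT replicate 3 (5 of the 10 genes) and 5243 with array weights (8 of the 10). Ifit2, Ifit3, Rsad2, Oasl2 and Usp18 were called under every alternative. Ifi44 lost its call with quantile normalization (-0.17) and the replicate block (-0.38, adjusted p = 0.0523), and ranged from -0.44 to -0.32 on leaving out single libraries. Its mean lies under the alternative filter of 2 FPKM, so it has no value there. Ifit1 passed with a common FPKM sum (-0.45), array weights (-0.35) and the replicate block (-0.37, adjusted p = 0.0446), and Xaf1 with array weights (-0.57). With median-of-ratios scaling Ifit1 was -0.21 (limma adjusted p = 0.359) and Xaf1 -0.29 (adjusted p = 0.094). With quantile normalization Ifit1 was -0.22 (adjusted p = 0.369) and Xaf1 -0.22 (adjusted p = 0.158). On leaving out single libraries they ranged from -0.49 to -0.30 and from -0.58 to -0.37. With median-of-ratios scaling Isg15 turned to 0.11 and Bst2 to 0.14, and without single libraries they ranged from -0.15 to 0.0014 and from -0.13 to 0.06 (without Alb-Cre replicate 2, 0.059). The causes were not tested.

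Over all rows, 2582 were lower and 939 higher. The counts were 1516 and 1872 with median-of-ratios scaling, 1478 and 1522 with quantile normalization, 5243 and 1772 with array weights, and 1631 and 613 with the replicate block. A common FPKM sum gave 623 higher. Leaving out single libraries gave 1205 (Alb-WT replicate 3) to 5112 (Alb-Cre replicate 4) lower and 546 to 1679 higher. Deviations of same-numbered libraries correlated at -0.10 to 0.01, and no library matched its own number best. Alb-Cre replicate 4 stood far from its group, so these values cannot decide whether the numbers pair the libraries. Averaged over rows, replicates differed by at least 5.45 times counting noise (mean squared deviate). It was not computed for the members alone, and the part of depth in their spread was not tested.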
